A study of Mus musculus with 12 samples.

Results

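De novo nucleotide synthesis builds the purine and pyrimidine rings of RNA and DNA from small precursors, and 10 genes of it and of purine breakdown were followed here in MEFs, fibroblasts taken from mouse embryos and grown in culture. The genes were proposed as members of these pathways with earlier results of these data known, and were matched by symbol among the 12637 genes of the count table, where all 10 were found. Of these, 7 act in purine synthesis (Ppat, Gart, Pfas, Paics, Adsl, Atic and Impdh2), Cad and Umps act in pyrimidine synthesis, and Xdh encodes xanthine dehydrogenase, which oxidises hypoxanthine and xanthine to uric acid. The 9 genes other than Xdh are called the synthesis genes.

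The 4 groups of 3 libraries were KO cells with doxycycline (KO Dox), KO cells with the solvent DMSO (KO DMSO), WT cells with doxycycline (WT Dox) and WT cells with DMSO (WT DMSO). KO stands for depletion of CBP and p300, a pair of lysine acetyltransferases that act as transcriptional coactivators. Per the labels, it was induced with 4-OHT in an immortalised Crebbp fl/fl, Ep300 fl/fl line that stably carries Cre-ERT2, a tamoxifen-dependent recombinase. Whether the WT cells carry floxed alleles or Cre-ERT2, or were given 4-OHT, the sources used here do not give. Doxycycline, an antibiotic that also blocks mitochondrial ribosomes, was given at 30 µg/ml for 24 hours, and all groups grew in medium with 4.5 g of glucose per litre and 10% serum. The labels do not tell separate cultures from repeat libraries of one culture, so each p-value speaks of the spread among libraries, part or all of which may be technical.

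In the purine pathway, PPAT commits phosphoribosyl pyrophosphate (PRPP) to the pathway, and GART, PFAS, PAICS, ADSL and ATIC then build inosine monophosphate (IMP). GART and ATIC use formyl groups carried by folate, and IMPDH2 turns IMP towards guanine nucleotides. In the pyrimidine pathway, CAD carries out the opening steps and UMPS the closing ones, with the mitochondrial enzyme DHODH between them. Several of these genes are known targets of the transcription factor MYC, and ATF4 is known to raise the supply of folate-bound carbon for purine synthesis.

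RefSeq promoter windows on GRCm38.p6, 250 bases before to 50 after the start that RefSeq annotates, were found for 8 of the 10 genes, with Pfas and Xdh not among them. Stretches of these windows are shown because the 8 genes share one short motif and differ in others, and the 30-base stretches show one site each. Matches to the searched motifs are in capitals, each sequence reads 5′ to 3′ on the gene's strand, and positions count from the start, with -1 the base before it.
Atic, chr1:71557036-71557155, plus strand, positions -120 to -1: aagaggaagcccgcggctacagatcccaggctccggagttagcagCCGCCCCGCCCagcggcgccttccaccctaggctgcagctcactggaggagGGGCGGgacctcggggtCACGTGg
Gart, chr16:91646973-91647092, minus strand, positions -120 to -1: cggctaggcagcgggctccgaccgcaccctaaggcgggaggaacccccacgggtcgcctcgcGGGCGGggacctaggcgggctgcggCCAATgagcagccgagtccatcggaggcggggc
Adsl, chr15:80948370-80948489, plus strand, positions -120 to -1: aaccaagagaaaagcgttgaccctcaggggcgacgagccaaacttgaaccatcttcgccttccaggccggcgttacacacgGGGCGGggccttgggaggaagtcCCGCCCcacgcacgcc
Cad, chr5:31054660-31054779, plus strand, positions -120 to -1: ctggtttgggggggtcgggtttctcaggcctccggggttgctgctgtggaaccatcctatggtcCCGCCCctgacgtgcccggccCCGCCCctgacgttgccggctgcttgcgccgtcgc
Umps, chr16:33967024-33967143, minus strand, ending at position 15: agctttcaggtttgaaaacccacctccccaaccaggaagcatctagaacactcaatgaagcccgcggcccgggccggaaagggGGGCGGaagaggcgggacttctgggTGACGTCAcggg
Impdh2, chr9:108560314-108560343, plus strand, positions -122 to -93: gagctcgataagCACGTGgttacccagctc
Paics, chr5:76951087-76951116, plus strand, positions -215 to -186: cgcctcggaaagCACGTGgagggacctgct
Ppat, chr5:76951601-76951630, minus strand, positions -52 to -23: gcttcccgccGCGCAGGCGCgctgacgcga

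All 8 windows held the GC box GGGCGG on either strand, against 35.7% of 32851 windows of the same length. In the Atic stretch above, the GC boxes at positions -75 and -70 overlap by a base. The E-box CACGTG, which MYC and USF proteins can bind, was in 3 of the 8 windows (Atic, Impdh2 and Paics), against 7.15% of all windows. The Impdh2 E-box lies before the RefSeq start. It lies inside the gene as GENCODE annotates it, from position 108560286 of chromosome 9. The ATF4 composite site TGATGNAAT was in 0 of the 8, against 0.965% of all. The cAMP response element TGACGTCA, the site of CREB, was in the Umps window alone among the 8, just after the start, against 1.79% of all. The NRF1 site, searched on both strands, was in the Ppat window alone, against 4.6% of all. Of the remaining motifs, CCAAT was in 4 of the 8 windows (Atic, Gart, Impdh2 and Paics) against 37.4% of all, and TATAAA in Impdh2 and Umps against 13.6%. A match is a description of the letters, and no binding was measured.

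Between 44476039 and 52173143 reads per library were counted in genes. Levels are given as CPM, read counts relative to the library total, scaled with TMM, which sets library totals on the premise that most genes do not differ. Unmapped reads took 7.63% of all reads in KO DMSO replicate 1 and 6.65% in KO DMSO replicate 2, against 1.85 to 2.09% in the other libraries. The mean log2 CPM of 256 processed pseudogenes was 0.25 in KO DMSO replicate 1 and 0.96 to 1.02 in the other KO libraries, and it was 1.45 to 1.53 in WT Dox against 0.74 to 0.79 in WT DMSO. A model with a term for KO DMSO replicate 1 and the WT DMSO libraries, called the set term here, is given where it changes a result. Since that term marks every WT DMSO library but none from WT Dox, its size comes from KO DMSO replicate 1 alone. In WT, what the term marks thus cannot be told apart from doxycycline, and this carries over to the interaction. The term also bears on KO against WT with DMSO. There Xdh was at -6.90 in log2 units with the term and -6.69 without it, and Cad at -1.53 and -1.61. Read counts over whole genes do not check the deletion where exons outside the floxed part are counted. Ep300 had 111 to 115 CPM in KO Dox and 120.0 to 128 in KO DMSO, against 178 to 196 in WT Dox and 192 to 200.4 in WT DMSO. Crebbp had 53.7 to 57.0 CPM in KO Dox and 58.8 to 60.4 in KO DMSO, against 60.4 to 63.5 in WT Dox and 65.8 to 67.8 in WT DMSO.

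The first comparison asked how the RNA of these genes in KO cells compared with that in WT cells. All 10 were lower in KO with each treatment. In none of them did the groups overlap. The share of all genes without overlap was not counted, so this does not set the 10 apart. In edgeR's quasi-likelihood test at a Benjamini-Hochberg adjusted p under 0.05, 44.8% of all 12637 genes were called lower in KO with doxycycline and 44.3% with DMSO. Xdh was lowest relative to WT, at under 0.01 times the WT level. The pyrimidine gene Cad fell most among the synthesis genes and Ppat, the entry enzyme of the purine pathway, fell least. The summed level of the 9 synthesis genes was 684 to 689.6 CPM in KO Dox and 672 to 687 in KO DMSO, against 1398 to 1408 in WT Dox and 1249 to 1284 in WT DMSO.

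**Figure D1:**
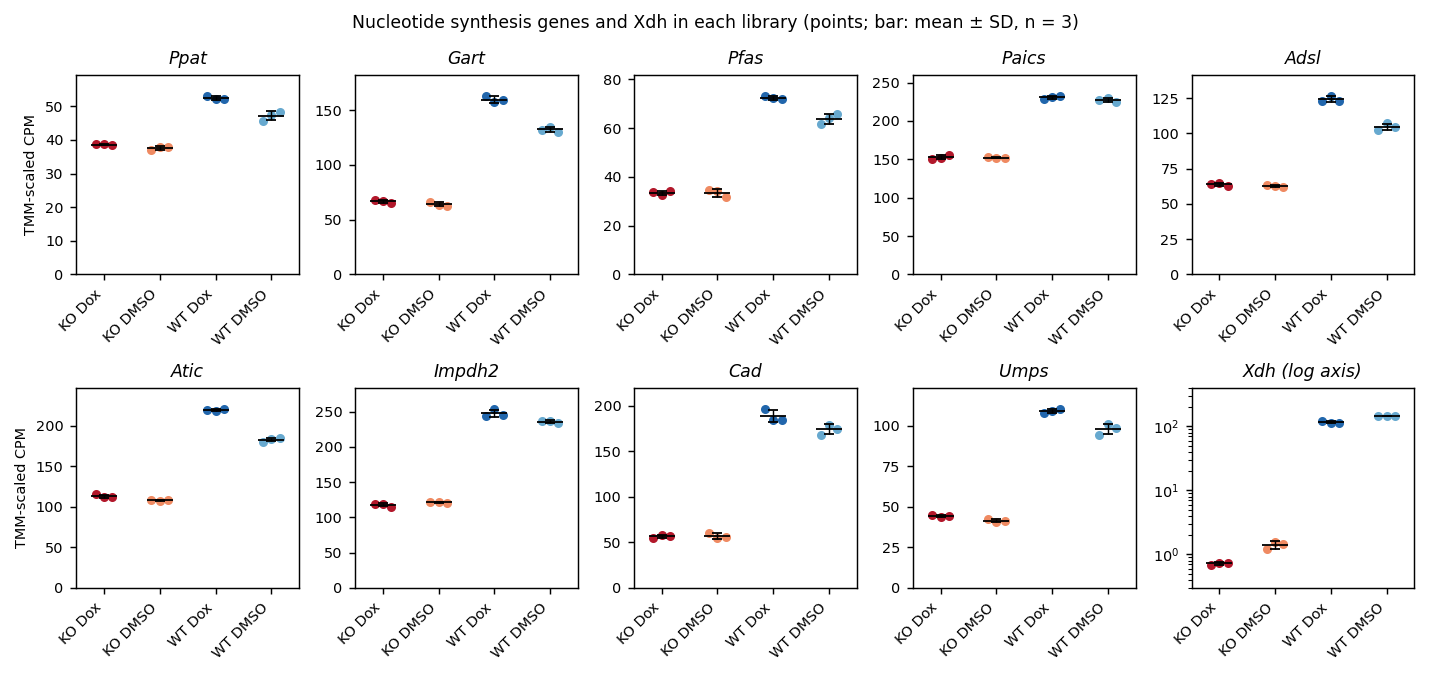
TMM-scaled CPM of the 10 genes in each library (points), with the mean and SD of 3 libraries, for KO Dox, KO DMSO, WT Dox and WT DMSO from left to right. The axis is linear and starts at 0 except for Xdh, whose log axis shows 0.684 to 1.58 CPM in the KO libraries and 112 to 146 CPM in the WT libraries.

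The size of the differences set the genes apart from each other. Called and at least 2-fold lower were 16.6% of all genes with doxycycline and 16.7% with DMSO. Among the 10 genes, 6 were at least 2-fold lower with doxycycline (Gart, Pfas, Impdh2, Cad, Umps and Xdh) and 4 with DMSO (Gart, Cad, Umps and Xdh). The median log2 fold change of the 9 synthesis genes, KO over WT, was -1.07 with doxycycline and -0.93 with DMSO, against 0.01 and 0.02 over all genes.

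Fibroblast markers moved with genotype too. Of 10 such markers 9 were in the table, with Lum not among them, and all 9 were lower in KO with each treatment. Their summed level was 3405 to 3434 CPM in KO Dox and 2930 to 3060.0 in KO DMSO, against 12682 to 13177 in WT Dox and 12765 to 12847 in WT DMSO. Col3a1, a collagen gene of fibroblasts, averaged 1.96 CPM in KO Dox and 1.82 in KO DMSO, against 854 in WT Dox and 823 in WT DMSO. Of 7 macrophage markers 3 were in the table, with a summed level of 24.0 to 26.3 CPM in KO Dox and 27.5 to 29.1 in KO DMSO, against 11.7 to 12.9 in WT Dox and 16.1 to 17.1 in WT DMSO. Cd68 alone carried this sum in KO, at 21.6 CPM in KO Dox and 24.3 in KO DMSO, against 1.19 in WT Dox and 1.5 in WT DMSO. Lyz2 went the other way, at 2.83 and 3.20 CPM in KO Dox and KO DMSO, against 10.3 and 13.8 in WT Dox and WT DMSO, and Csf1r was lower in KO with DMSO, at -0.51 in log2 units, and at 0.11 without passing with doxycycline. Of 4 muscle markers Des was in the table and of 4 neural markers Tubb3 and Map2, all lower in KO with DMSO, at -2.18, -5.37 and -0.35 in log2 units. Ptprc, Adgre1, Tyrobp and Fcer1g, and all 5 epithelial and 4 endothelial markers, were not in the table. The part of cell identity in the differences of the 10 genes was not tested, and in bulk RNA fewer cells of a type and less RNA per cell cannot be told apart.

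Xdh (chromosome 17, positions 73883895 to 73950196 of GRCm38) had 36, 39 and 40 reads in KO Dox and 62, 74 and 77 in KO DMSO. The WT libraries had 5909, 5588 and 5630 reads with doxycycline and 7137, 7089 and 7135 with DMSO. In CPM the level was 0.719 ± 0.0310 in KO Dox and 1.41 ± 0.181 in KO DMSO, against 116 ± 4.39 in WT Dox and 146 ± 0.506 in WT DMSO (SD, n = 3 each). Every KO library was far under every WT library. The log2 fold change, KO over WT, was -7.33 ± 0.0595 with doxycycline (SE, adjusted p = 2.3e-31, edgeR) and -6.69 ± 0.0525 with DMSO (SE, adjusted p = 1.0e-31, edgeR). Counted from the lowest, these stood at percentiles 0.376 and 0.582 of all genes.

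Cad encodes the protein that joins carbamoyl phosphate synthetase, aspartate transcarbamoylase and dihydroorotase (chromosome 5, positions 31054780 to 31078479). It had 54.6, 58.0 and 56.7 CPM in KO Dox and 60.4, 55.2 and 55.3 in KO DMSO, against 196, 185 and 184 in WT Dox and 168, 179 and 174 in WT DMSO. The KO libraries all lay below the WT libraries. In log2 units, KO over WT, Cad was at -1.74 ± 0.0351 with doxycycline and -1.61 ± 0.0354 with DMSO (SE, adjusted p = 2.9e-21 and 1.3e-20, edgeR).

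Umps makes UMP from orotate (chromosome 16, positions 33954782 to 33967038). It had 45.1, 43.5 and 44.5 CPM in KO Dox and 42.5, 40.5 and 41.1 in KO DMSO, against 108, 109 and 110.1 in WT Dox and 94.4, 100.8 and 98.4 in WT DMSO. As with Cad, no KO library reached a WT library. Its log2 fold change, KO over WT, was -1.30 ± 0.0289 with doxycycline and -1.24 ± 0.0296 with DMSO (SE, adjusted p = 9.0e-23 and 3.6e-22, edgeR).

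Gart encodes a protein with 3 enzyme activities of the purine pathway (chromosome 16, positions 91621186 to 91646952). It had 67.7, 67.2 and 65.4 CPM in KO Dox and 66.2, 63.4 and 62.7 in KO DMSO, against 163, 157 and 159 in WT Dox and 132, 135 and 129.95 in WT DMSO. Its log2 fold change, KO over WT, was -1.26 ± 0.0262 with doxycycline and -1.05 ± 0.0267 with DMSO (SE, adjusted p = 2.3e-23 and 1.5e-21, edgeR), farther from 0 than in the other 6 purine genes.

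Impdh2 encodes the IMP dehydrogenase that is usually raised in dividing cells (chromosome 9, positions 108560286 to 108565584). It had 119, 119 and 115 CPM in KO Dox and 122, 122 and 121 in KO DMSO, against 244, 253 and 245 in WT Dox and 237, 237 and 233 in WT DMSO. The KO level was 0.475 times the WT level with doxycycline and 0.515 times with DMSO. Pfas, which makes formylglycinamidine ribonucleotide (chromosome 11, positions 68985697 to 69008460), averaged 33.5 ± 0.869 CPM in KO Dox and 33.4 ± 1.54 in KO DMSO, against 72.3 ± 0.744 in WT Dox and 63.7 ± 2.13 in WT DMSO (SD, n = 3 each).

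The remaining purine genes fell less with DMSO. Atic, which carries out the closing steps to IMP (chromosome 1, positions 71557150 to 71579631), was at 0.516 times WT with doxycycline and 0.591 times with DMSO. Adsl, which acts in IMP synthesis and again on the way to AMP (chromosome 15, positions 80948490 to 80970946), was at 0.516 and 0.601 times WT. Paics, which joins AIR carboxylase and SAICAR synthetase (chromosome 5, positions 76951307 to 76967509), was at 0.662 times with doxycycline and 0.670 times with DMSO. Ppat (chromosome 5, positions 76913249 to 76951578) had 38.9, 38.7 and 38.4 CPM in KO Dox and 37.0, 38.0 and 37.9 in KO DMSO, against 53.1, 52.1 and 52.2 in WT Dox and 45.7, 47.5 and 48.3 in WT DMSO. Its log2 fold changes, -0.44 ± 0.0293 with doxycycline and -0.33 ± 0.0300 with DMSO, were the smallest of the 10 but passed (SE, adjusted p = 5.5e-13 and 3.1e-10, edgeR).

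Library scaling moved these values without ending a call. Between KO and WT, 11363 genes were called with doxycycline and 11296 with DMSO, so by call most genes differed, against the premise of TMM. Lower in KO thus means relative to the other genes, and RNA per cell was not measured. Without TMM the median of all genes moved up by 0.13 with doxycycline and 0.15 with DMSO. The KO differences of the 10 genes moved the same way, with Ppat at -0.31 and -0.18. Pfas and Impdh2 with doxycycline, at -0.98 and -0.94, and Gart with DMSO, at -0.90, were then less than 2-fold lower.

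**Figure D2:**
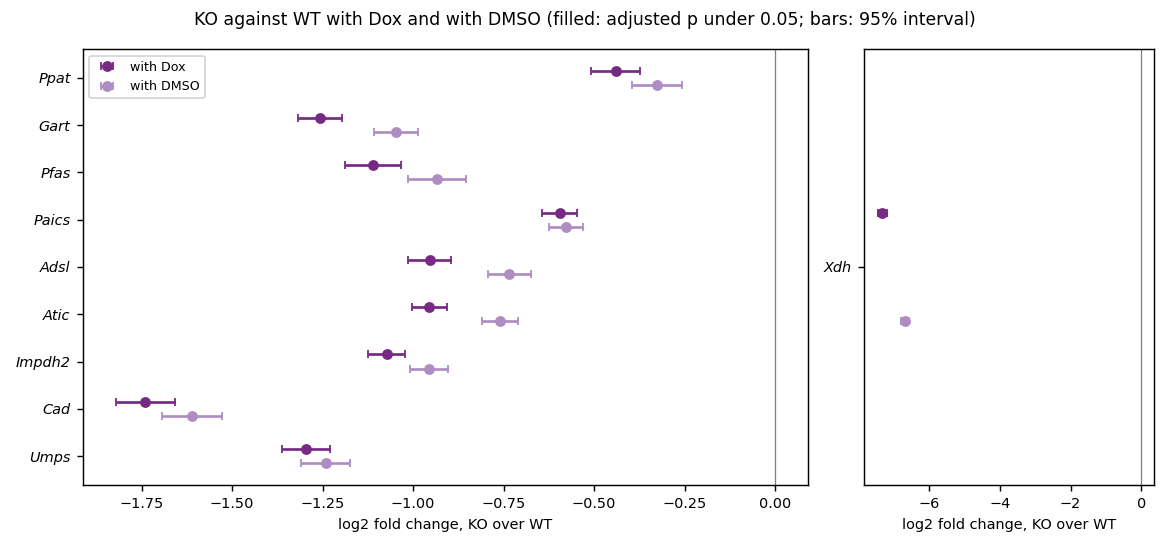
Log2 fold change of KO over WT with doxycycline and with DMSO, with 95% intervals, the 9 synthesis genes on the left and Xdh on its own axis on the right. Cad, at -1.74 and -1.61, lies farthest from 0 among the synthesis genes and Ppat, at -0.44 and -0.33, nearest.

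Per kilobase of annotated exon, Paics and Impdh2 had the highest levels of the 10 in every group, but in a different order by genotype. In the KO groups Paics came first, at 48.7 ± 0.752 CPM per kb in KO Dox and 48.5 ± 0.231 in KO DMSO, ahead of Impdh2 at 38.2 ± 0.714 and 39.5 ± 0.247 (SD, n = 3 each). In the WT groups Impdh2 came first, at 80.4 ± 1.63 CPM per kb in WT Dox and 76.6 ± 0.722 in WT DMSO, ahead of Paics at 73.6 ± 0.697 and 72.4 ± 0.734 (SD, n = 3 each). The ranges of the pair did not overlap in any group.

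In both KO groups the order went on with Atic, Gart, Umps, Adsl, Ppat, Cad, Pfas and Xdh. In both WT groups it went on with Umps, Gart, Atic, Cad, Adsl, Xdh, Ppat and Pfas. The only neighbours with overlapping ranges were Gart and Umps, in KO Dox, KO DMSO and WT Dox. Cad thus stood 2 places lower in KO, at 6.90 CPM per kb in KO Dox and 6.96 in KO DMSO, against 23.0 in WT Dox and 21.3 in WT DMSO. Pfas was the lowest synthesis gene per kb in all 4 groups, at 4.22 CPM per kb in KO Dox, 4.21 in KO DMSO, 9.12 in WT Dox and 8.03 in WT DMSO. Lengths were those of all annotated exons of a gene together, so the isoforms in use were not taken into account.

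The second comparison asked how doxycycline changed these genes in each genotype. In KO cells it raised 2 of the 9 synthesis genes, Atic and Umps, where 11.6% of all genes were called higher. In WT cells 8 of the 9 were called higher with doxycycline, by 1.05 to 1.21 times, where 23.9% of all genes were called higher. Gart, Atic and Adsl rose most. As stated above, doxycycline in WT cannot be told apart from what the set term marks. Xdh fell in both genotypes. The median log2 fold change of the synthesis genes was 0.03 in KO and 0.16 in WT, against -0.00 and -0.02 over all genes.

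**Figure D3:**
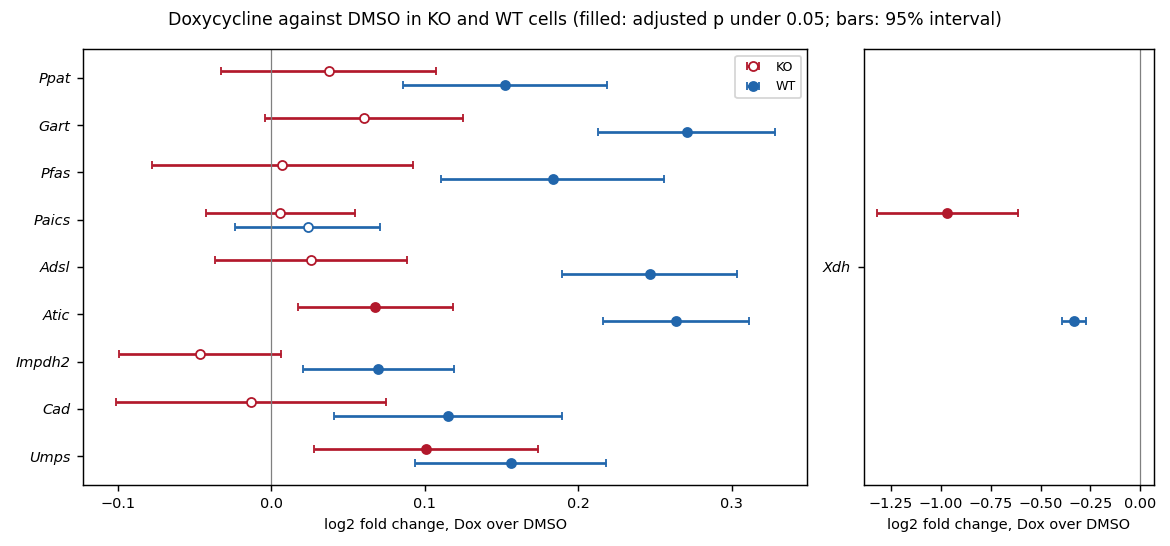
Log2 fold change of doxycycline over DMSO in KO and in WT cells with 95% intervals, filled where the adjusted p was under 0.05, the synthesis genes on the left and Xdh on its own axis. In KO the synthesis genes run between -0.05 for Impdh2 and 0.10 for Umps, and in WT between 0.02 for Paics and 0.27 for Gart.

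In KO cells the Atic libraries given doxycycline, at 115, 112 and 112 CPM, lay above those given DMSO, at 108 CPM in each. The log2 fold change of Atic was 0.07 ± 0.0219 (SE, n = 3 and 3, adjusted p = 0.028, edgeR). Umps did not overlap either and was at 0.10 ± 0.0317 (SE, n = 3 and 3, adjusted p = 0.024, edgeR). Both calls depended on single libraries. Umps lost its call without KO Dox replicate 1 or 3, KO DMSO replicate 2 or 3, or KO DMSO replicates 1 and 2 together, with adjusted p up to 0.117 (edgeR) over its alternatives. Atic lost its call without KO Dox replicate 1, KO DMSO replicate 2 or 3, or KO DMSO replicates 1 and 2 together, without TMM and with the set term, with adjusted p up to 0.175 (edgeR). Gart was at 0.06, with a 95% interval of -0.0041 to 0.125, and passed without KO DMSO replicate 1, at 0.09 (adjusted p = 0.0268, with a range of 0.0268 to 0.346 over its alternatives, edgeR). The 95% intervals of Ppat, Pfas, Paics, Adsl, Impdh2 and Cad, none of which passed, lay between -0.10 and 0.11 on the log2 scale. Of these, Ppat and Impdh2 also had no overlap between Dox and DMSO libraries, with Ppat higher at 0.04 and Impdh2 lower at -0.05. A lack of overlap thus did not set Atic and Umps apart.

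In WT cells Gart rose by 0.27 ± 0.0249 on the log2 scale (SE, n = 3 and 3, adjusted p = 3.5e-09, edgeR). Atic had 219.8, 218 and 220.5 CPM in WT Dox and 180.4, 184 and 185 in WT DMSO, with no overlap, and rose by 0.26 ± 0.0206 (SE, n = 3 and 3, adjusted p = 2.2e-10, edgeR). Adsl had 123, 126 and 123 CPM in WT Dox and 102, 107 and 104 in WT DMSO, and rose by 0.25 ± 0.0248 (SE, n = 3 and 3, adjusted p = 1.5e-08, edgeR). Gart, Atic and Adsl thus lay at percentiles 92.2, 91.9 and 91.1 of the log2 fold changes of all genes. Pfas, Umps and Ppat rose by 0.18 ± 0.0315, 0.16 ± 0.0269 and 0.15 ± 0.0289 (SE, adjusted p = 3.4e-05, 3.6e-05 and 1.1e-04, edgeR). Cad rose by 0.12 ± 0.0322 and Impdh2 by 0.07 ± 0.0215 (SE, adjusted p = 0.0051 and 0.0087, edgeR).

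Paics did not pass in WT. It had 228, 232 and 233 CPM in WT Dox and 227, 229.6 and 225 in WT DMSO, so the groups overlapped, and its difference was 0.02, with a 95% interval of -0.02 to 0.07. With the set term Ppat and Impdh2 lost their calls in WT, at 0.12 and 0.07 (adjusted p = 0.137 and 0.217, the highest over their alternatives, edgeR), and Cad was at 0.24. Impdh2 also lost its call without WT Dox replicate 2, at 0.05 (adjusted p = 0.0625, edgeR).

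Xdh, from the few KO reads given above, fell with doxycycline in KO and was at -0.97 ± 0.153 in log2 units (SE, n = 3 and 3, adjusted p = 5.6e-05, edgeR), where 10.1% of all genes were called lower. In WT it was at -0.33 ± 0.0270 (SE, n = 3 and 3, adjusted p = 4.3e-10, edgeR), or -0.63 with the set term, where 29.2% of all genes were called lower. The Dox and DMSO libraries of Xdh overlapped in neither genotype. Beside Xdh, Aox1, a related oxidase gene, averaged 2.91 CPM in KO Dox and 3.22 in KO DMSO, against 10.8 in WT Dox and 11.8 in WT DMSO.

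The interaction asked whether the doxycycline response differed between KO and WT cells. It was below 0 in all 10 genes and passed in 7 of them, namely Xdh and 6 of the 7 purine genes, where 14.3% of all genes were called with a lower response in KO and 32.5% were called in either direction. The largest among the synthesis genes was that of Adsl, at -0.22 ± 0.0368 in log2 units, KO minus WT (SE, adjusted p = 5.9e-05, edgeR). Gart was at -0.21 ± 0.0374 and Atic at -0.20 ± 0.0301 (SE, adjusted p = 1.2e-04 and 2.2e-05, edgeR). Pfas, Impdh2 and Ppat passed at -0.18 ± 0.0485, -0.12 ± 0.0314 and -0.11 ± 0.0420 (SE, adjusted p = 0.0071, 0.0062 and 0.039, edgeR). Xdh was at -0.63 ± 0.156 (SE, adjusted p = 0.0029, edgeR).

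Paics at -0.02 (95% interval -0.09 to 0.05) and Umps at -0.06 (-0.15 to 0.04) did not pass the interaction. Cad missed the threshold at -0.13 (95% interval -0.24 to -0.01, adjusted p = 0.055, edgeR) and passed in 8 of 20 alternatives, at -0.21 with the set term (adjusted p = 0.00602, with a range to 0.222 over its alternatives, edgeR). With the set term Xdh lost its call, at -0.43 (adjusted p = 0.173, edgeR). Ppat lost its call in 7 of 20 alternatives, which were DESeq2, the set term, and the fits without WT Dox replicate 1 or 3, WT DMSO replicate 1 or 2, or KO DMSO replicates 1 and 2 (adjusted p up to 0.232, edgeR). Pfas lost its call without KO DMSO replicates 1 and 2, at -0.11 (adjusted p = 0.175, edgeR).

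Ppat and Paics lie head to head on chromosome 5, with annotated starts 271 bases apart and overlapping spans. The sources used here do not give the strand of counting, so the assignment of reads in that overlap is uncertain. The ratio of Ppat to Paics reads in a library does not depend on scaling. It was 0.258, 0.254 and 0.247 in KO Dox and 0.242, 0.251 and 0.249 in KO DMSO, against 0.232, 0.225 and 0.224 in WT Dox and 0.202, 0.207 and 0.215 in WT DMSO. Every KO library thus had relatively more Ppat than every WT library, by 1.11 times on average with doxycycline and 1.19 times with DMSO. Dox and DMSO libraries overlapped in KO, while in WT the Dox libraries lay above the DMSO libraries, by 1.09 times. A two-sided exact permutation test gave p = 0.3 for doxycycline in KO and p = 0.1 for the other 3 comparisons, and 0.1 is the smallest that 3 against 3 libraries can give.

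Gart lies head to head with Son, which encodes a splicing cofactor, with annotated starts 554 bases apart, and Son was higher in KO where Gart was lower. Son had 689 to 715 CPM in KO Dox and 727 to 736 in KO DMSO, against 442 to 491 in WT Dox and 477 to 504 in WT DMSO. The ratio of Gart to Son reads was 0.0956 ± 0.00358 in KO Dox and 0.0874 ± 0.00236 in KO DMSO, against 0.349 ± 0.0148 in WT Dox and 0.269 ± 0.0128 in WT DMSO (SD, n = 3 each). The groups did not overlap in any of the 4 comparisons of this ratio (two-sided exact permutation p = 0.1 each).

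Impdh2 overlaps Ndufaf3, a gene for an assembly factor of respiratory complex I, on the other strand. Ndufaf3 had 11.2 to 11.6 CPM in KO Dox and 11.6 to 12.2 in KO DMSO, against 4.39 to 5.76 in WT Dox and 5.57 to 7.37 in WT DMSO, so in each group it was far below Impdh2. Impdh1 encodes the other IMP dehydrogenase. The ratio of Impdh2 to Impdh1 reads was 2.37 ± 0.00200 in KO Dox and 2.55 ± 0.0460 in KO DMSO, against 3.43 ± 0.120 in WT Dox and 3.74 ± 0.0948 in WT DMSO (SD, n = 3 each). The Dox libraries lay below the DMSO libraries in both genotypes, and KO below WT in both treatments (two-sided exact permutation p = 0.1 each). In all, 20 such ratio comparisons were made over 5 ratios, and none could pass an adjustment with 3 libraries a group.

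**Figure D4:**
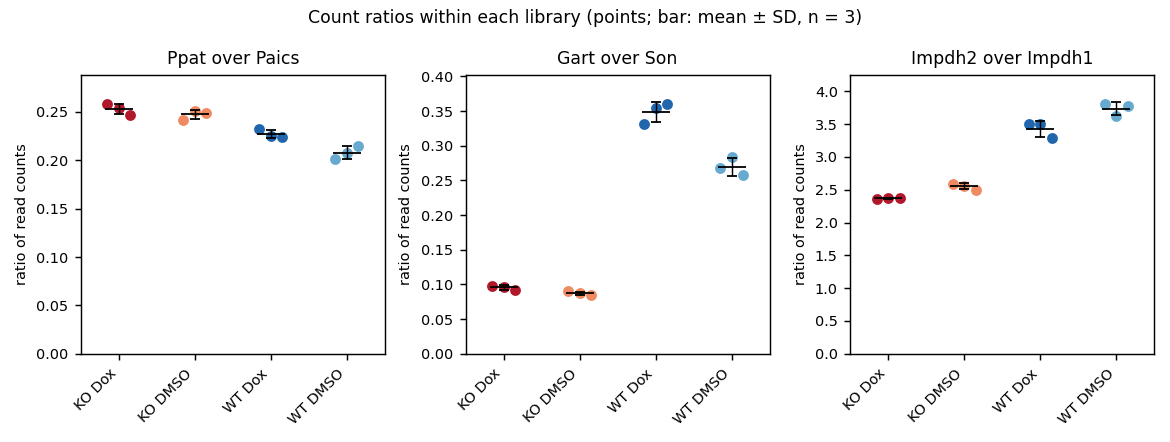
Ratios of read counts within each library (points) with mean and SD of 3 libraries, for KO Dox, KO DMSO, WT Dox and WT DMSO, on linear axes from 0. Ppat over Paics is higher in KO than in WT, and Gart over Son and Impdh2 over Impdh1 are lower.

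For the gene lists that follow, the shares of all genes called were 11.6% higher and 10.1% lower with doxycycline in KO, 23.9% higher and 29.2% lower with doxycycline in WT, and 45.1% higher and 44.3% lower in KO against WT with DMSO. With 3 to 11 genes a list, a count near these shares is no result about the list. Of 8 further purine genes in the table, 3 rose with doxycycline in KO and 4 in WT, and 0 fell in either. Prps2, which makes PRPP, rose in KO by 0.19 ± 0.0320 on the log2 scale, and in WT, where it did not pass, it was at 0.06 ± 0.0308 (SE). Its relative Prps1 was at 0.05 ± 0.0361 in KO without passing and rose by 0.24 ± 0.0336 in WT (SE). Gmps, on the branch to GMP, rose by 0.08 ± 0.0210 in KO and 0.09 ± 0.0205 in WT (SE), with an interaction of -0.00 ± 0.0293 (SE, adjusted p = 0.93, edgeR). With DMSO 7 of the 8 were lower in KO, and the list's median was -0.45.

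Of 6 further pyrimidine genes, 1 rose with doxycycline in KO, while in WT 2 rose and 2 fell. Dhodh, whose enzyme stands between CAD and UMPS, averaged 9.77 CPM in KO Dox and 9.49 in KO DMSO, against 25.7 in WT Dox and 21.7 in WT DMSO. Dhodh, like Cad and Umps, was lower in KO, at -1.40 with doxycycline and -1.20 with DMSO on the log2 scale. Ctps, which makes CTP from UTP, was at 0.02 ± 0.0219 with doxycycline in KO without passing and at -0.18 ± 0.0213 in WT (SE, adjusted p = 0.53 and 1.4e-07, edgeR). With DMSO 5 of the 6 were lower in KO and Cmpk1, a UMP and CMP kinase gene, was higher, at 0.26 ± 0.0345 (SE). Cmpk1 was named after its values were seen.

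**Figure D5:**
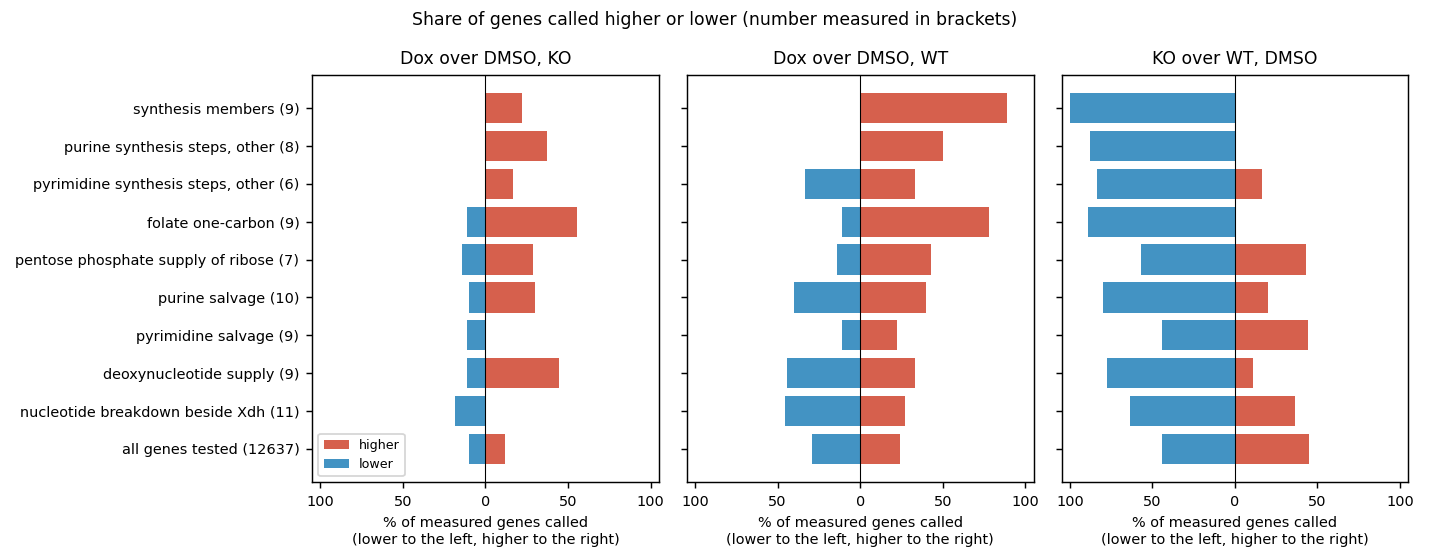
Share of measured genes called lower (bars to the left) and higher (bars to the right) for doxycycline over DMSO in KO, for doxycycline over DMSO in WT and for KO over WT with DMSO, by gene list, with all 12637 genes in the bottom row. With doxycycline 2 of 9 synthesis genes and 5 of 9 folate genes were higher in KO, and 8 and 7 of 9 in WT.

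Folate enzymes supply the formyl groups that GART and ATIC use. Of 9 such genes, 5 rose and 1 fell with doxycycline in KO, and 7 rose and 1 fell in WT. Mthfd2, of the mitochondrial folate pathway, averaged 75.1 CPM in KO Dox and 61.7 in KO DMSO, against 329 in WT Dox and 154 in WT DMSO. Its interaction was -0.81 ± 0.0338 in log2 units, KO minus WT (SE, adjusted p = 6.3e-15, edgeR). Of the 9, 7 were called with a lower response in KO and 1 with a higher one, where 14.3% of all genes were called lower. With DMSO 8 of the 9 were lower in KO, with Mthfd1l at -2.48 and Mthfd1, the cytosolic enzyme, at -1.45 on the log2 scale. Of 7 pentose phosphate genes, which supply ribose, 2 rose and 1 fell with doxycycline in KO, and 3 rose and 1 fell in WT. With DMSO 4 of these 7 were lower in KO and 3 higher, with Tkt at -1.20 ± 0.0275 and Taldo1 at 0.69 ± 0.0361 (SE).

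Salvage genes reuse bases and nucleosides. Of 10 purine salvage genes 3 rose and 1 fell with doxycycline in KO, and 4 rose and 4 fell in WT. Hprt, which reuses hypoxanthine and guanine, averaged 148 CPM in KO Dox and 144 in KO DMSO, against 86.9 in WT Dox and 73.8 in WT DMSO. With DMSO Hprt was thus higher in KO, by 0.96 ± 0.0271 on the log2 scale (SE, adjusted p = 1.2e-20, edgeR), while 8 of the 10 were lower. Ada, which deaminates adenosine, was at -2.65 ± 0.0358 there (SE). Of 9 pyrimidine salvage genes 1 fell with doxycycline in KO and none rose, while 2 rose and 1 fell in WT, and 4 were higher and 4 lower in KO with DMSO, near the shares of all genes. Of 3 nucleoside transporter genes in the table all were lower in KO with DMSO, and Slc29a1 averaged 25.7 CPM in KO Dox and 25.7 in KO DMSO, against 262 in WT Dox and 216 in WT DMSO.

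Deoxynucleotide genes supply DNA synthesis. With DMSO 7 of 9 were lower in KO, with Tyms, the thymidylate synthase gene, at -2.65 ± 0.0425 and Rrm2, a ribonucleotide reductase subunit, at -1.70 ± 0.0246, while Rrm2b, the subunit known as a p53 target, was higher at 1.91 ± 0.0319 (SE). With doxycycline 4 of the 9 rose and 1 fell in KO, and 3 rose and 4 fell in WT. Of 11 breakdown genes beside Xdh, 2 fell with doxycycline in KO and none rose, while 3 rose and 5 fell in WT, and 7 were lower and 4 higher in KO with DMSO.

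Among 9 transcription factors known to act on synthesis genes, 1 rose and 1 fell with doxycycline in KO, near the shares of all genes, and 4 rose and 1 fell in WT. Myc averaged 17.5 CPM in KO Dox and 16.7 in KO DMSO, against 172 in WT Dox and 151 in WT DMSO, and its partner Max 69.0 and 70.1 against 70.8 and 69.1. Atf4 averaged 263 CPM in KO Dox and 242 in KO DMSO, against 635 in WT Dox and 346 in WT DMSO. In log2 units Atf4 rose with doxycycline by 0.12 ± 0.0231 in KO and 0.88 ± 0.0225 in WT, with an interaction of -0.76 ± 0.0322 (SE, adjusted p = 8.8e-15, edgeR). With DMSO 4 of the 9 were lower in KO and 3 higher, and the list's median was -0.003. Usf2 was higher there, at 0.39 ± 0.0388 in log2 units, and Usf1 was at -0.003 ± 0.0343 without passing (SE). Whether any of these factors had a part in the levels of the 10 genes was not tested.

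By distance over the 4 group means of log2 CPM, each centred on its own mean, Twnk, Rps24 and Gm14418 were nearest to the mean profile of the 9 synthesis genes, at 0.0271, 0.0286 and 0.0289, where the median gene was at 1.14. Twnk, the gene of the mitochondrial DNA helicase, averaged 27.7 CPM in KO Dox and 27.7 in KO DMSO, against 57.7 in WT Dox and 50.8 in WT DMSO. Nearest to Xdh were S1pr3, Gm43618 and Ly6a, at 0.271, 0.330 and 0.345, where the median gene was at 7.01. S1pr3, a receptor gene for sphingosine 1-phosphate, averaged 0.964 CPM in KO Dox and 1.57 in KO DMSO, against 132 in WT Dox and 148 in WT DMSO.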

How the data were processed

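Polyadenylated RNA of 12 mouse libraries was sequenced. The authors deposited raw read counts per gene, with no normalization. STAR 2.6.0a, HTSeq 0.10.0 and GRCm38.p6 are named, without roles, per the submitters' processing notes; for the strand of counting and for how low genes were left out, the sources used here give nothing. The table had 4 further sums of reads in no gene (the unmapped share is given above), left out of library sizes and tests. The counts of all 12637 genes were fitted in 1 model of 4 group means with edgeR 4.0.16 (R 4.3.3, TMM, robust quasi-likelihood F test, p adjusted by Benjamini-Hochberg across the whole table, called under 0.05). The SE is the log2 fold change over the square root of F, and 95% intervals use 8 residual degrees of freedom. An interval can thus be wider than the test beside it implies. For Gart with doxycycline in KO the interval includes 0, while p before adjustment was 0.041 (edgeR). The common biological coefficient of variation was 2.26%. The comparisons share libraries. Positions and lengths came from GENCODE M21 (GRCm38), promoters from RefSeq. The members and lists were chosen with earlier results of these data known. The list genes named beside the members came from a pool set per list and contrast. It held up to 4 called genes with the smallest p and up to 2 uncalled ones with the highest level. Not every gene of that pool is named, so those named are a selection. The 3 nearest profiles each were named too. The fit was also run on simulated data, but no outcome is given here, so no conclusion is drawn from it. Alternatives were other scalings (median-ratio, no TMM), DESeq2 1.42.0, limma-voom (limma 3.58.1), a minimum of 1 CPM in 6 libraries, the groups compared alone, a replicate block, the set term and each library left out; the fit without KO DMSO replicates 1 and 2 was chosen after seeing the data.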

Additional observations from a re-analysis of the deposited data

Results flagged for a closer look

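The doxycycline response differed between genotypes, by the test of the difference itself, in 7 of the 10 genes, all with a lower response in KO, where 32.5% of all genes were called in either direction and 14.3% with a lower response. In log2 units, KO minus WT, it was -0.11 for Ppat, -0.21 for Gart, -0.18 for Pfas, -0.22 for Adsl, -0.20 for Atic, -0.12 for Impdh2 and -0.63 for Xdh (edgeR, adjusted p given above). Gart, Adsl, Atic and Impdh2 passed in all 20 alternatives run. None of these alternatives can tell doxycycline in WT apart from what the set term marks.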

How the results depend on the processing

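All 10 genes were called lower in KO, with doxycycline and with DMSO, in all 21 alternatives run. The number of the 10 called ranged from 1 to 4 for doxycycline in KO, from 7 to 9 for doxycycline in WT and from 5 to 8 for the interaction. For doxycycline in KO the main count of 3 became 1 without KO DMSO replicates 1 and 2, where the genes called over the table went to 1089, against 2740 with all libraries. Leaving out single libraries gave 1 to 4 of the 10. With the set term 2850 genes were called for doxycycline in WT, against 6706 without it. The cause of these shifts was not tested.

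Sign changes among the 10 were found only in genes that did not pass, for doxycycline in KO. Without TMM, Pfas was at -0.0025 and Paics at -0.0038. Cad was at 0.0308 with the set term and 0.0379 without KO DMSO replicates 1 and 2. Over single libraries left out, Pfas ranged from -0.0295 to 0.0417, Paics from -0.0031 to 0.0195 and Cad from -0.0332 to 0.0405.

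Same-numbered libraries did not deviate together (correlations of -0.108 to 0.112, and 6 of 18 best with their own number), so the numbers were not taken as pairs. With the replicate block 2679 genes were called for doxycycline in KO, 6664 in WT, 4050 for the interaction, and 11355 and 11296 for KO against WT with doxycycline and with DMSO, and no call of the 10 genes changed. edgeR's filter removed no gene, so the alternative without a filter is the fit reported. Xdh in KO rests on 36 to 77 reads a library, so its values there are less precise than those of the other genes.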
